A study of Mus musculus with 2 samples.

Results

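The genes described here encode the partners of the TAL1-LMO2-LDB1 complex: Tal1, Lyl1, Lmo2, Lmo4, Ldb1, Tcf3, Tcf12, Cbfa2t3, Ssbp2 and Ssbp3. They were chosen by name, and their gene identifiers were matched to these symbols through the GENCODE mouse annotation. All 10 were found among the 43346 genes of the deposited gene tables, and 95 of the 103639 entries of the transcript tables belonged to them. The RNA was polyA-selected and sequenced as paired ends from G1E-ER4 cells. G1E-ER4 is an immortalized male mouse erythroid line, derived from cells that lack functional Gata1, that carries a Gata1 fused to an estrogen receptor ligand-binding domain. Estradiol activates the fusion and starts erythroid differentiation. The series held 1 group of 2 libraries, both from cells given 17beta-estradiol at 10 nM for 7 h, labelled biological replicates 1 and 2. Since 1 biological sample is cited for both, their spread may be that of library preparation and not of separate cultures. No untreated cells or other times were among the samples analysed here, so the levels below describe 1 state of 1 line. The libraries held 59610980 and 44689418 rounded expected counts.

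TAL1 is a basic helix-loop-helix (bHLH) factor that binds the DNA motif called an E-box as a heterodimer with an E protein, which Tcf3 and Tcf12 encode. LMO2 has no DNA-binding domain of its own and joins this dimer to LDB1, and LDB1 can associate with itself and so link distant DNA sites. SSBP proteins bind LDB1 and protect it from degradation, and ETO2, the product of Cbfa2t3, is a corepressor that joins the complex in erythroid progenitors. GATA factors bind LMO2 as well, so the complex often sits where an E-box lies near a GATA motif.

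On GRCm38 (GENCODE M21), Tal1 lies at chr4:115056426-115071755 and Ssbp3 at chr4:106910701-107049694 on the plus strand, as do Lmo2 at chr2:103957986-103981878, Lyl1 at chr8:84701457-84704715 and Ssbp2 at chr13:91460283-91703429. On the minus strand are Cbfa2t3 at chr8:122625141-122699109, Ldb1 at chr19:46031570-46045214, Tcf3 at chr10:80409514-80433647, Tcf12 at chr9:71842688-72111871 and Lmo4 at chr3:144188530-144205220. Several of these genes have more than 1 annotated start, and the DNA in front of paired starts is shown because the share of each gene assigned to its starts is compared further down. Each run is the 250 bases before a start, from RefSeq on GRCm38.p6, written 5′ to 3′ on the gene's strand. Capitals mark the GATA motif AGATAA and the E-box forms CAGATG and CAGCTG on either strand, and a GATA motif on the other strand reads TTATCT.
Tal1, first start, chr4:115056176-115056425, plus strand: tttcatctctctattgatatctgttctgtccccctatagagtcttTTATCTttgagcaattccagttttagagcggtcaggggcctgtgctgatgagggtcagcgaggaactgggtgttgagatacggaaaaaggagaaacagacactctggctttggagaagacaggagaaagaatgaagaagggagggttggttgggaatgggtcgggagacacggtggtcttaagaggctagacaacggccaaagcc
Tal1, second start, chr4:115057561-115057810, plus strand: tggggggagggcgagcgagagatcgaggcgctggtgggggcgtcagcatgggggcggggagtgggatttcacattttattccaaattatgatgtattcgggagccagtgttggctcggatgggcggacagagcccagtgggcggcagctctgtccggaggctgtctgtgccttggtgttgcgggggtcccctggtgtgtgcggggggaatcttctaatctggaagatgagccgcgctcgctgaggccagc
Cbfa2t3, distal start, chr8:122699110-122699359, minus strand: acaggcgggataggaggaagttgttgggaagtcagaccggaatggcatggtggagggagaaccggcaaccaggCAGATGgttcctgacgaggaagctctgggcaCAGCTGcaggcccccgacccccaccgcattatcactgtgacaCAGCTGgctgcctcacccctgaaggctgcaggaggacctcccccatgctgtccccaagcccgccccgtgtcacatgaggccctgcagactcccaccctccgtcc
Cbfa2t3, proximal start, chr8:122678176-122678425, minus strand: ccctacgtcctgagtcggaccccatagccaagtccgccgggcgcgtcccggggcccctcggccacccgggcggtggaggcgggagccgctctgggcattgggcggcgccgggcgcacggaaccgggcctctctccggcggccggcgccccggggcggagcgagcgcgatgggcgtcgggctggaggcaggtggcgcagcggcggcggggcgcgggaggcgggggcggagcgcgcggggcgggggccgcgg
Ssbp3, outer start, chr4:106911220-106911469, plus strand: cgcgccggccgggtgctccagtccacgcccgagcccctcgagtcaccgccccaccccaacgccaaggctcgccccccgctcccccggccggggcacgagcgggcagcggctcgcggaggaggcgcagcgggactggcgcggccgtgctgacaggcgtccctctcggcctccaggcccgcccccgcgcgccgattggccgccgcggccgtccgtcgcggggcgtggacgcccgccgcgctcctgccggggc
Ssbp3, inner start, chr4:106922935-106923184, plus strand: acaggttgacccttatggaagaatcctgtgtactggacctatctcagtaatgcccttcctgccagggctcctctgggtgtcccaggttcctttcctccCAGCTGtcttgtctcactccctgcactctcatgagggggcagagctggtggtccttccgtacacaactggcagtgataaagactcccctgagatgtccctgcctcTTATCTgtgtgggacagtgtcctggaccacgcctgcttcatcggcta

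The paired windows differed in base composition. The proximal Cbfa2t3 window held 83.2% G and C and the distal one 64.0%, while the outer Ssbp3 window held 82.4% and the inner one 55.6%. The median over all 32851 windows of this length was 52.4%. Windows were found for 9 of the 10 genes, 18 in all. AGATAA occurred in 3 of the 18 and in 9.99% of all windows. It lay in front of the first Tal1 start, the inner Ssbp3 start and, with 2 matches, an Ldb1 start at chr19:46037070. That Ldb1 start matched none of the groups of annotated starts compared below, so no share was assigned to it. CAGATG occurred in 1 of the 18 and in 14.4% of all windows, and CAGCTG in 3 of the 18 and in 13.0% of all windows. The distal Cbfa2t3 window held CAGATG and 2 copies of CAGCTG. A combined motif with its parts 9 bases apart, CTGNNNNNNNNNGATAA, occurred in 2 of the 18 windows and in 0.755% of all windows. Its matches were in the distal Cbfa2t3 window, where it overlaps a CAGCTG, and in the inner Ssbp3 window, where it overlaps the TTATCT. With 7 or 8 bases between the parts there was no match in the 18 windows, against 0.746% and 0.502% of all windows. A match says only that these letters are present.

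All 10 genes were detected, at a TPM (a level per transcript length, scaled to 1 total in each library) of at least 1 in both libraries. The same held for 8219 of 21474 protein-coding genes, or 38.3%. The median of the 10 mean TPM values was 212, against 20.8 over the detected protein-coding genes. Levels fell into a high set (Lmo2, Ldb1, Ssbp3, Tcf3), a middle set (Cbfa2t3, Tal1, Lyl1, Tcf12) and a low set (Lmo4, Ssbp2), names used here only for their place in the order. Of the 10, 6 ranked among the 1000 protein-coding genes of highest mean TPM. Values below are given for replicate 1 and then replicate 2, with the mean ± SD (n = 2).

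**Figure D1:**
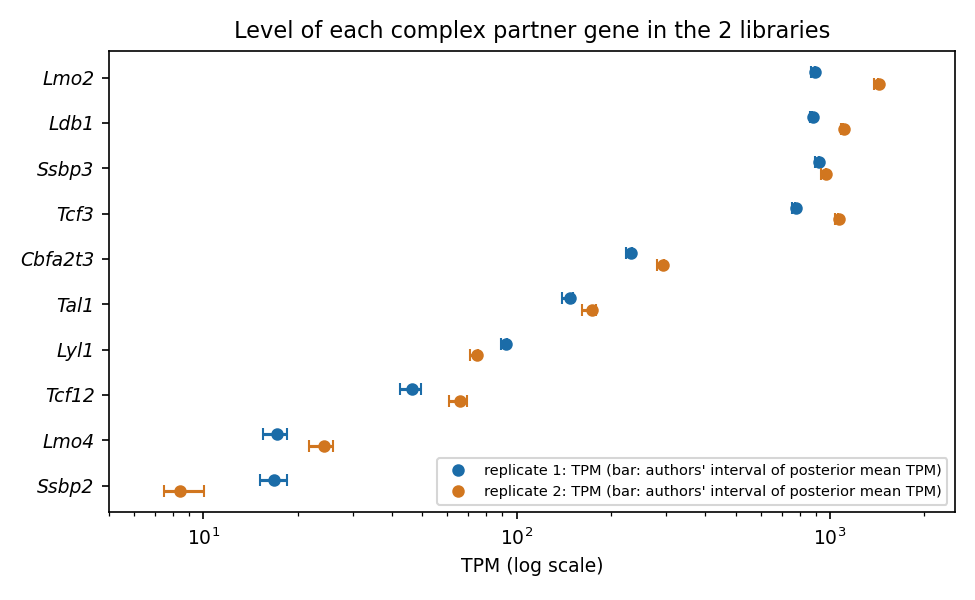
TPM of the 10 genes (log axis) in replicate 1 (blue) and replicate 2 (orange); bars are the authors' interval of the posterior mean TPM, whose level was not stated. Lmo2, Ldb1, Ssbp3 and Tcf3 lie between 777 and 1434 TPM, and Ssbp2 lies lowest at 16.8 and 8.40.

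Lmo2, the LIM-only bridge of the complex, had the highest mean, with TPM of 898 and 1434 (1166 ± 379). Ldb1, which carries the self-association domain, had 883 and 1111 (997 ± 161). Ssbp3, whose protein stabilizes LDB1, had 920 and 972 (946 ± 36.8). These and the E protein gene Tcf3, at 777 and 1069 (923 ± 207), had overlapping ranges and were not separated by the spread. The order within this set was Ssbp3, Lmo2, Ldb1, Tcf3 in replicate 1 and Lmo2, Ldb1, Tcf3, Ssbp3 in replicate 2.

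The corepressor gene Cbfa2t3 came next, with TPM of 231 and 293 (262 ± 43.6). Tal1 itself had 148 and 174 (161 ± 18.5), and its closest paralog Lyl1, whose product can replace TAL1 in the complex, had 92.5 and 74.6 (83.5 ± 12.6). Tal1 and Lyl1 thus lay below each of the 4 high genes in both libraries. Tcf12, the other E protein gene, had 46.5 and 66.0 (56.2 ± 13.8). Lmo4, a LIM-only gene whose product also binds LDB1, had 17.2 and 24.2 (20.7 ± 4.99). Ssbp2 had 16.8 and 8.40 (12.6 ± 5.90). From Tcf3 downward no neighbours in this order overlapped, but the closest pair, Lmo4 and Ssbp2, was separated only by 17.17 against 16.75 TPM across libraries.

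TPM divides by an effective length that is estimated from the transcripts assigned in each library, and for some of these genes that length was short. It was 575 and 472 bases for Lmo2 and 1932 and 1959 for Ldb1. The levels were therefore also computed over 1 fixed length, that of the longest transcript annotated with a complete coding sequence, as TMM-scaled CPM per kilobase (counts scaled to library size, a scale chosen after the data were seen). On that scale Ldb1 led with 587 and 806 (697 ± 155). Tcf3 followed with 441 and 609 (525 ± 119), a range that overlaps that of Ldb1, and Lmo2 was the third with 239 and 337 (288 ± 69.5). Lmo2 was below Ldb1 in both libraries, at 0.407 and 0.419 of its level, whereas its TPM was 1.02 and 1.29 times that of Ldb1. Ssbp3 had 256 and 242 (249 ± 10.1) and overlapped Lmo2. Tal1, at 63.4 and 81.1, was no longer above Lyl1, at 66.8 and 58.4, in replicate 1, and these ranges overlapped. The Tal1 length used, 4213 bases, is that of the transcript Tal1-201, which held only 5.71% and 1.51% of Tal1 counts. The complete coding Tal1-204, of 2894 bases, held 78.8% and 86.6%, and a shorter length gives a higher Tal1 level. The loss of this order therefore rests on the length of a minor transcript. Lmo4 and Tcf12 also changed places at the low end, with 13.2 ± 3.38 and 11.7 ± 2.50 and overlapping ranges. The Tcf12 length, 6299 bases, is likewise that of a minor transcript, Tcf12-202, with 15.0% and 2.52% of its counts. Tcf12-220, of 4167 bases, held 73.1% and 49.7%. Which gene of the complex had the highest mean depended on this choice of length.

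Within families, the balance between paralogs was steep for some and shallow for others. The TPM of Tal1 was 1.60 and 2.33 times that of Lyl1 (1.97 ± 0.519), an order that did not hold in replicate 1 on the fixed-length scale. Lmo2 was 52.3 and 59.2 times Lmo4 (55.7 ± 4.89), and 22.6 and 22.1 times by counts. Ssbp3 was 54.9 and 116 times Ssbp2 (85.3 ± 43.0), so that ratio was large in both libraries but its size was not stable. Tcf3 was 16.7 and 16.2 times Tcf12 by TPM but 15.3 and 28.6 times by counts. Cbfa2t3 was 1.56 and 1.68 times Tal1 (1.62 ± 0.0837). By counts that last ratio was 1.80 and 1.82, so the balance of ETO2 to TAL1 transcripts was steady on both scales.

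**Figure D2:**
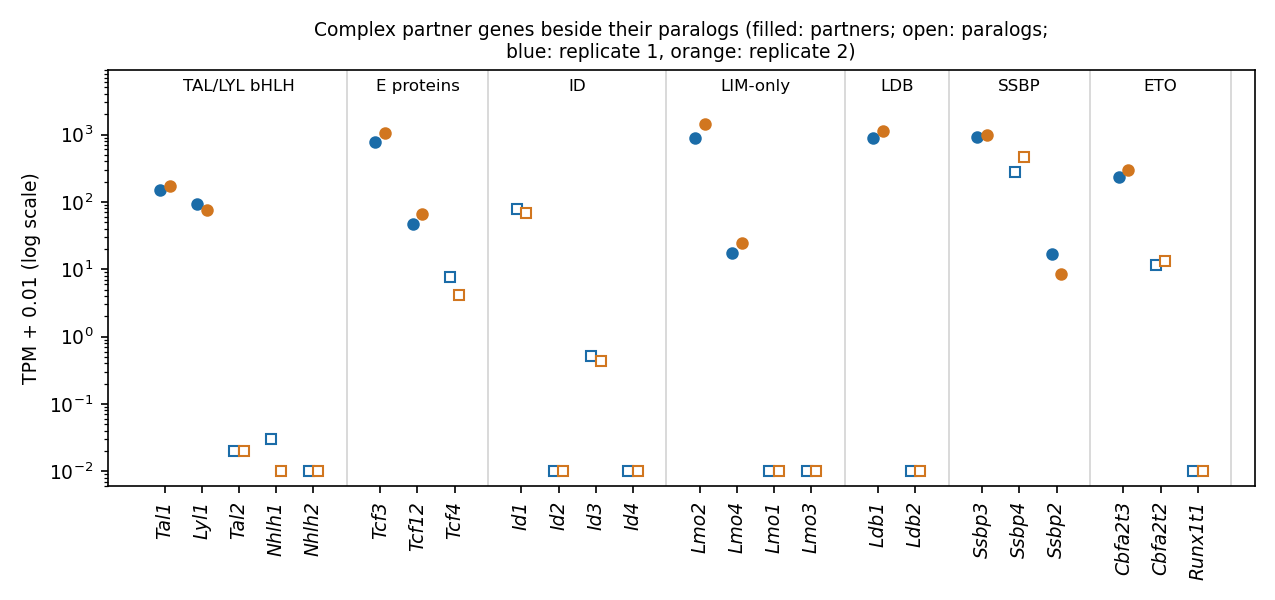
TPM + 0.01 (log axis) of the 10 genes (filled circles) and of their paralogs and the ID genes (open squares), in replicate 1 (blue) and replicate 2 (orange). Points at 0.01 are listed at 0 TPM. Among the open squares only Ssbp4, Id1, Cbfa2t2 and Tcf4 lie above 1 TPM in both libraries.

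A list of 49 other genes of the pathway gave the context, and 22 of them were detected while 16 had 0 counts in both libraries. Among paralogs that could stand in for the 10, most had few counts or none. Tal2, Nhlh1 and Nhlh2, the other bHLH genes of the TAL class, had at most 2 counts in a library. Lmo1, Lmo3, Ldb2 and the ETO family gene Runx1t1 had 0 counts, for which a 95% Poisson interval reaches 3.69 counts in each library. The 12 LIM-homeodomain genes, whose products use LDB proteins in other tissues, were all below 1 TPM, and 8 had 0 counts. The paralogs detected were Ssbp4, Cbfa2t2 and Tcf4. Ssbp4 had TPM of 280 and 459 (369 ± 127), which placed it between Ssbp3 and Ssbp2. Cbfa2t2, an ETO family gene, had 11.6 and 13.4, and Tcf4, the remaining E protein gene, had 7.67 and 4.16. Of the ID genes, whose products bind E proteins and keep them off DNA, Id1 had 79.3 and 69.3 TPM, Id3 0.510 and 0.420, and Id2 and Id4 had 0 counts.

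Some factors that bind DNA beside the complex lay in the range of its high set. Gata1 had TPM of 1251 and 872 and Klf1, an erythroid activator, 984 and 1394. Reads of Gata1 may come from the introduced fusion, and the tables do not tell it apart from the cell's own gene. Gata2, the progenitor GATA factor, had 370 and 536. Among corepressors, Gfi1b, a repressor of the erythroid and megakaryocyte lineages, had 978 and 707, Ncor1 had 105 and 115, and Rcor1 had 77.8 and 114. The 6 genes listed here for known binding by the complex were low in comparison, but they are not a full set of bound genes. Of these, Kit had 41.3 and 32.6, and the heme synthesis gene Alas2 9.32 and 3.14. The Alas2 values came with effective lengths of 840 and 1801 bases, and its log2 ratio (replicate 2 over 1) was -1.57 by TPM and -0.36 by scaled counts.

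Markers were checked against the labelled cell type. All 8 erythroid markers were detected, with a summed TPM of 20615 and 12489. Most of that sum was globin, with Hbb-bs at 11770.5 and 6656 TPM and Hba-a1 at 6573 and 3361. The erythroid pathway genes Slc4a1 (0.52 and 0.36 TPM) and Epb42 (0.25 and 0.32) were not among the 8 and lay below 1 TPM. Of 39 markers of other cell types, 8 were detected, 13 had 0 counts in both libraries, and the summed TPM was 143 and 148. Of the 8 megakaryocyte genes, 4 were detected: Gp1ba (52.6 and 52.7 TPM), Gp5 (32.6 and 39.6), Fli1 (13.55 and 11.88) and Itga2b (5.12 and 4.21). The other detected ones were the myeloid genes Spi1 (25.3 and 25.7 TPM) and Cd68, the mast cell gene Hdc and the lymphoid gene Lck. Among the 13 with 0 counts were Cdh5 (endothelial), Lyz2 and Itgam (myeloid), Cd3e (lymphoid) and Vwf (megakaryocyte). A few markers below 1 TPM still had counts, such as Eng (endothelial) with 56 and 62, Mpo (myeloid) with 0 and 24, Elane (myeloid) with 1 and 10, and Col1a2 (stromal) with 18 and 30. In bulk RNA, fewer cells with a transcript and less transcript per cell cannot be told apart.

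The difference between the libraries was then read from counts, since a count does not depend on the estimated length. A two-sided exact binomial test against the TMM-scaled library sizes was run for the 11285 genes that had 10 counts or more in all, with Benjamini-Hochberg adjustment. It concerns this pair of libraries and no condition, and its only error is that of counting. A gene was called when its adjusted p was below 0.05 and it differed 2-fold or more. None of the 10 genes was called, against a background of 11.2% of all genes tested (1261), with 8.37% (945) lower in replicate 2. All 10 had an unadjusted and an adjusted p under 0.05 without the fold, but so did 68.0% of all genes tested when adjusted. Under edgeR's exact test, with a dispersion estimated from the same pair, 0 of the 10 were called and each had an adjusted p of 1, against 0.913% (103) of all genes. The difference between the libraries is part of that dispersion, so the lack of calls does not show that the 10 were equal. Among the markers of other cell types, Mpo, Elane and Col1a2 were called higher in replicate 2 by the binomial test, and of these Mpo also by edgeR's exact test (adjusted p = 0.00379). The part of such cells in the results was not tested.

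By counts, 6 of the 10 were higher in replicate 2. Over the 10 genes the scaled log2 ratio (replicate 2 over 1) had a median of 0.36, and over detected protein-coding genes 0.01. Without the sign these medians were 0.45 and 0.33. Lmo2 had 26145 and 23921 counts and a scaled log2 ratio of 0.50. Ldb1 had 86389 and 76879 counts (0.46), and Tcf3 had 83327 and 74723 (0.47). Tal1 had 17111 and 14197 counts (0.36) and Cbfa2t3 had 30774 and 25847 (0.37). Each of these 5 genes thus differed by less than 1.5-fold in scaled counts, although Lmo2 differed 1.60-fold by TPM. Lmo4, at 1157 and 1082 counts, had a log2 ratio of 0.53. Lyl1 differed the other way, with 7703 and 4365 counts (-0.19), and Ssbp3, with 52481 and 32126, was nearly equal (-0.08). The largest difference was that of Ssbp2, the gene with the fewest counts, at 709 and 296 (-0.63).

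**Figure D3:**
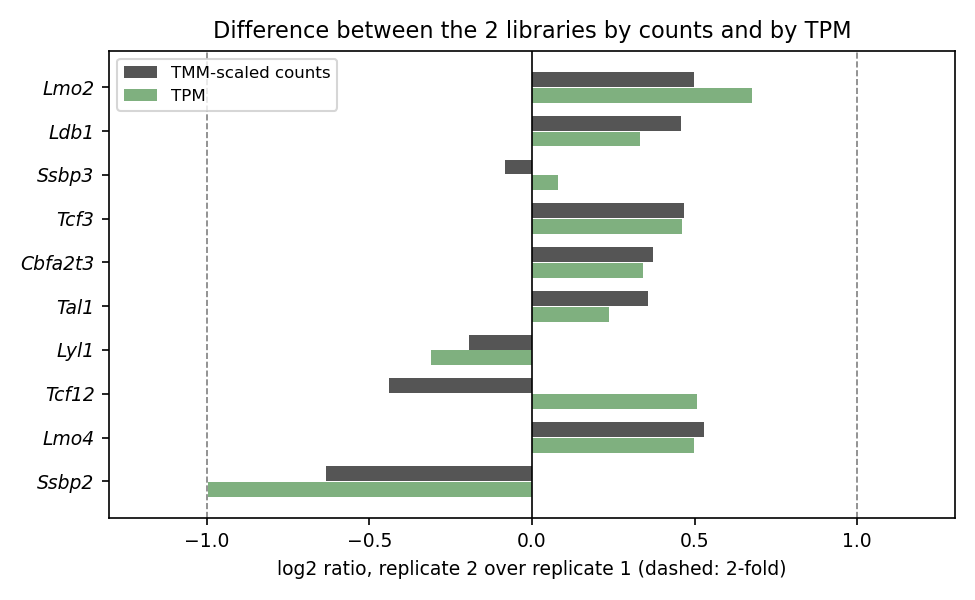
Log2 ratio of replicate 2 over replicate 1 for each gene, by TMM-scaled counts (grey) and by TPM (green); dashed lines mark 2-fold. Tcf12 (-0.44 by counts, 0.51 by TPM) and Ssbp3 (-0.08 and 0.08) lie on opposite sides of 0, and no count ratio reaches 2-fold.

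Among the 10 genes, Tcf12 was the one where counts and TPM parted most. Its counts were 5459 and 2612, a scaled log2 ratio of -0.44, while its TPM was higher in replicate 2, a log2 ratio of 0.51. Its estimated effective length was 2319 bases in replicate 1 and 1120 in replicate 2. A change of sign between counts and TPM was found for 12.6% of the detected protein-coding genes. The Ssbp3 ratios also had opposite signs, but both were close to 0. Among the other pathway genes, 27 were tested and 3 were called (beside 11.2% of all genes), each of them lower in replicate 2. Among them were Hdac1, a histone deacetylase, with a log2 ratio of -1.03, and Rlim, the ubiquitin ligase that targets LDB1 and LMO proteins, with -1.04. None of the 3 was called by edgeR's exact test.

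Some genes overlap a neighbour on the opposite strand, and whether counting used strand was not given in the sources used here. Ldb1 overlaps Pprc1 (10312 and 5573 counts), Lyl1 overlaps Nfix (3507 and 3661) and Tcf12 overlaps the pseudogene Rpl15-ps2 (489 and 598). Reads from such overlaps may be assigned to either gene. The share of Lyl1 that this touches was not tested.

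The transcript tables split each gene among its annotated transcripts. A transcript was counted as complete coding where its annotated coding sequence has both ends, as partial coding where an end is missing from the annotation, and as not coding otherwise, including targets of nonsense-mediated decay. Ldb1 was almost wholly complete coding, at 99.3% and 99.7% of its TPM, and the single Lyl1 transcript was as well. Tal1 was 75.2% and 77.9% complete coding by TPM and 94.3% and 94.8% by counts. Cbfa2t3 was 75.4% and 74.5% by TPM and 95.9% and 95.4% by counts. Lmo4 was 85.7% and 78.5% by TPM. Short transcripts weigh more in TPM than in counts, which separates both measures here.

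The transcripts with at least 10% of gene TPM in a library showed how few forms carried these genes. For Ldb1, the longest form, Ldb1-202, led with 56.6% and 55.8%, followed by Ldb1-201 with 29.6% and 24.7%, Ldb1-206 with 10.6% and 9.0% and Ldb1-205 with 2.49% and 10.1%. For Tal1, Tal1-204 held 65.7% and 72.7%, and the 683-base partial form Tal1-202 held 24.8% and 22.1%. For Lmo4, Lmo4-201 held 80.4% and 76.3% and the noncoding Lmo4-204 14.3% and 21.5%. In these 3 genes a complete coding transcript led in both libraries. The same held for Tcf3, where Tcf3-202 led with 37.2% and 39.0%. After it came the noncoding Tcf3-212 with 18.7% and 26.4% and the partial Tcf3-214 with 20.4% and 20.6%. The complete coding Tcf3-210 had 13.1% and 8.70%. Cbfa2t3 was spread over more forms. Cbfa2t3-203 held 33.3% and 23.5%, Cbfa2t3-201 27.4% and 26.3% and Cbfa2t3-202 14.7% and 24.6%, all complete coding. The partial Cbfa2t3-204 held 14.4% and 13.2% and the noncoding Cbfa2t3-206 8.90% and 10.1%.

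**Figure D4:**
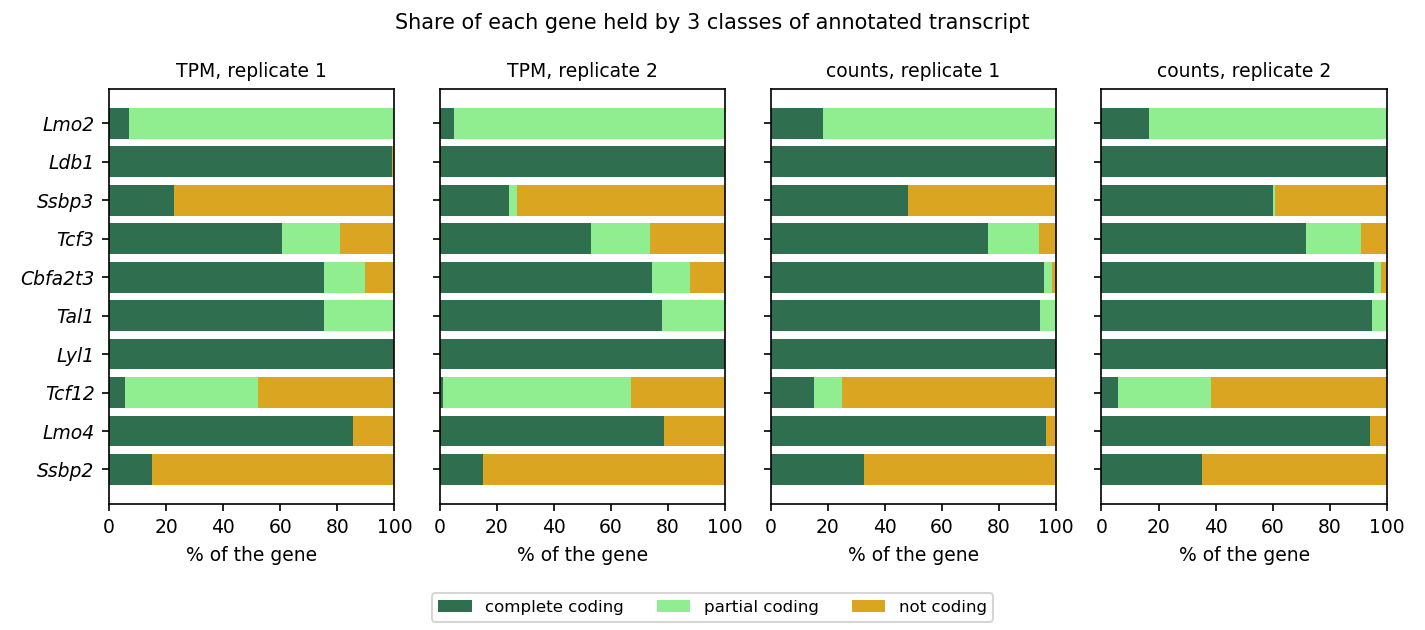
Share of each gene (% of its transcript TPM in the left pair of panels, % of its expected counts in the right pair) held by complete coding, partial coding and not coding transcripts in each library. Complete coding transcripts hold 99.3% and 99.7% of Ldb1 TPM but 6.98% and 5.12% of Lmo2 TPM.

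Lmo2 was the opposite case, with 6.98% and 5.12% of its TPM in complete coding transcripts and 92.9% and 94.8% in partial ones. By counts the complete coding share was 18.5% and 16.6%. Most of the gene's TPM was held by 3 partial transcripts, whose coding sequence is annotated without its end. The 478-base Lmo2-206 had 36.6% and 71.1% of gene TPM, Lmo2-204 27.9% and 15.8%, and Lmo2-207 28.4% and 7.87%. The leading transcript by TPM was Lmo2-206 in both libraries, but its share differed by more than 30 points. By counts the lead was Lmo2-204 (33.6%) in replicate 1 and Lmo2-206 (50.3%) in replicate 2.

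Tcf12, Ssbp2 and Ssbp3 were by TPM also mostly outside complete coding transcripts. Complete coding transcripts of Tcf12 held 5.66% and 1.26% of its TPM. The 600-base partial transcript Tcf12-203 led by TPM (44.3% and 61.2%), whereas Tcf12-220, a 4167-base target of nonsense-mediated decay, led by counts (73.1% and 49.7%) and held 42.3% and 13.9% of TPM. The noncoding Tcf12-204 held 5.0% and 19.1% of TPM. For Ssbp2, the 914-base noncoding Ssbp2-209 held 66.2% and 82.7% of TPM, and complete coding transcripts 15.2% and 15.1%, of which Ssbp2-202 had 13.1% and 9.64%. The noncoding Ssbp2-206 held 18.5% and 2.14%. For Ssbp3, the 629-base noncoding Ssbp3-211 held 51.1% and 69.3% of TPM, and complete coding transcripts 22.7% and 24.3%. The next Ssbp3 transcripts by mean share of TPM were the complete coding Ssbp3-202 (11.7% and 14.1%) and Ssbp3-201 (10.9% and 10.2%). In replicate 1 the noncoding Ssbp3-212 was above both, with 19.6%, against 1.49% in replicate 2. By counts the complete coding share of Ssbp3 was 48.0% and 60.1%. The authors' posterior SD of the gene count was 0 in both libraries for all 10 genes, as for 87.3% of detected protein-coding genes. That SD therefore gives no error for the gene levels above. By TPM the leading transcript was the same in both libraries for 9 of the 10 genes. The exception was Cbfa2t3, whose lead was Cbfa2t3-203 in replicate 1 (33.3%) and Cbfa2t3-201 in replicate 2 (26.3%). By counts it was the same for 8 of the 10: Cbfa2t3-203 led in both libraries, while Lmo2 and Ssbp3 changed lead, the latter from Ssbp3-201 (29.5%) to Ssbp3-211 (35.9%).

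Starts within 500 bases of each other were joined, and the TPM of their transcripts was summed. These shares rest on how reads were assigned to annotated transcripts, and no start was measured directly. For Cbfa2t3, the distal start, whose window with 3 E-box matches is printed above, held 33.9% and 25.5% of gene TPM and 49.4% and 37.1% of counts. The proximal start, 20934 bases downstream, held 51.0% and 61.0% of TPM. Transcripts of both starts had counts in both libraries, and the distal share was lower in replicate 2 on both scales. For Ssbp3, the outer start held 26.6% and 24.4% of TPM and 53.1% and 60.2% of counts, and the inner start 51.7% and 70.3% of TPM and 21.6% and 36.2% of counts. The annotated start of Ssbp3-216, 769 bases upstream of the outer start, held 0 TPM in both libraries. The inner share is that of the noncoding Ssbp3-211 almost alone. The start of Ssbp3-212, further inside the gene, held 19.6% in replicate 1 and 1.49% in replicate 2.

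For Tal1, the first start held 3.21% and 0.856% of TPM and the second 31.1% and 26.5%. The rest, 65.7% and 72.7%, belonged to Tal1-204, annotated to start 3082 bases after the first start. No window was found for that start, so the Tal1 windows printed above are those of the lesser shares. For Lmo2, the most distal start held 28.4% and 7.87% of TPM, the next 27.9% and 15.8%, and the proximal group 43.6% and 76.2%. The proximal group led in both libraries, but the distal share was over 3 times larger in replicate 1. For Ldb1, the distal start held 40.3% and 33.7% and the inner start, 5593 bases downstream, 59.0% and 66.0%. The Ldb1 shares thus differed by less than 7 points between the libraries.

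**Figure D5:**
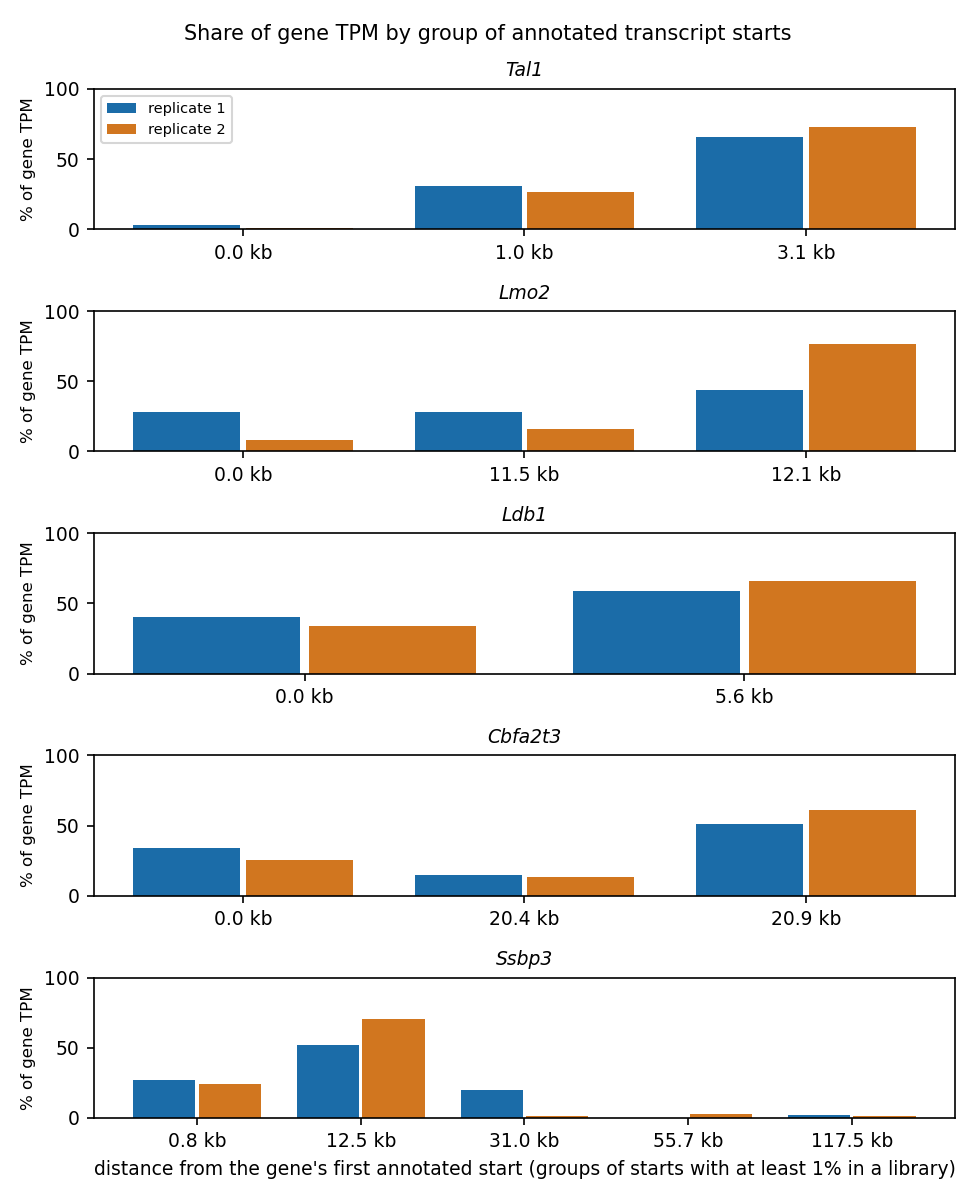
Share of gene TPM (%) by group of annotated starts, placed by distance from the gene's first annotated start, for Tal1, Lmo2, Ldb1, Cbfa2t3 and Ssbp3 in replicate 1 (blue) and replicate 2 (orange). The proximal Lmo2 group goes from 43.6% to 76.2%, while the inner Ldb1 group is at 59.0% and 66.0%.

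Tcf3 has a pair of alternative exons that encode the bHLH domain, which give the E proteins known as E12 and E47. The exons are printed because the shares of transcripts with each are compared below. Those shares rest on how reads were assigned to whole annotated transcripts, and no exon was counted directly. They are read from GENCODE M21 transcripts and placed on GRCm38, minus strand, 5′ to 3′. Both are coding throughout in every transcript that has them. Capitals mark bases that differ from or have no partner in the other exon.
Tcf3, upstream exon, chr10:80412827-80413062: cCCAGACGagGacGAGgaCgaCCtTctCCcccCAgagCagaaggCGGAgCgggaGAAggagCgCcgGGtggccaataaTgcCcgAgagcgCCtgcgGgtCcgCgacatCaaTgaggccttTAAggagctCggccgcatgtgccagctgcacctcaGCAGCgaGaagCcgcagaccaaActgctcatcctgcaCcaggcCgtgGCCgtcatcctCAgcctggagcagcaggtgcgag
Tcf3, downstream exon, chr10:80410398-80410624: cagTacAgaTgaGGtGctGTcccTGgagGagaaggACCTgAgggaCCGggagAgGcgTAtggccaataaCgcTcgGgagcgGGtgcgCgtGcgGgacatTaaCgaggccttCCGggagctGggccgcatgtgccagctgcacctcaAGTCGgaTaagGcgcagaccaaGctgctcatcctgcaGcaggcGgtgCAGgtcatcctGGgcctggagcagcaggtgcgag

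Of 227 aligned bases, 175 were identical (77.1%). Transcripts with the upstream exon (Tcf3-201, Tcf3-203, Tcf3-206 and Tcf3-210) held 16.7% and 12.0% of the TPM of the pair (14.3 ± 3.37). Those with the downstream exon, including a form that is 3 bases shorter, held 83.3% and 88.0%. By counts the upstream share was 18.1% and 13.1%. Transcripts with the downstream exon held the larger share in both libraries and on both scales. Transcripts with either exon made up 81.0% and 73.5% of Tcf3 TPM, and the 819-base noncoding Tcf3-212 held 18.7% and 26.4%.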

How the data were processed

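The data were polyA RNA-seq tables of 2 libraries of 1 group. Per the notes deposited with the files, values derived from alignments to the transcriptome on mm10 with GENCODE M4; which aligner and quantifier made them is not given in the sources used here. Values deposited by the authors were expected counts and posterior mean counts, TPM, FPKM, isoform percentages (percent of a gene's TPM) and an interval of TPM whose level was not stated. Symbols, transcript classes and starts came from GENCODE M21, which matched 42462 of 43346 genes. Expected counts were rounded and scaled by TMM (edgeR 4.0.16, R 4.3.3); DESeq2 1.42.0 size factors were an alternative. Log2 ratios used a prior count of 0.5. The exact binomial test (scipy 1.17.1) was tried on simulated data for this comparison of 11285 genes. It called 100 of 100 genes changed 3-fold, 100 of 100 changed 4-fold and 2 of 11085 unchanged genes. The simulated counts held counting noise only, and changed genes were drawn from those with at least 100 counts over both libraries. The 2 of 11085 is therefore no rate of false calls for the real libraries, whose spread was larger. The members and lists were chosen with earlier results of these data known. Named were all 10 genes, the 3 of highest mean TPM in each pathway group, pathway genes that were called and had a mean TPM of 5 or more, and transcripts with at least 10% of a gene's TPM. Markers, overlapping genes and the erythroid genes Slc4a1 and Epb42 were named outside this rule. With 1 group, no test between conditions was possible. The values of 1 pathway gene that this rule names are not reported here.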

Additional observations from a re-analysis of the deposited data

How the results depend on the processing

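Of 42 alternative values for the summary results, 31 kept their place, and of 154 for single genes, transcripts and ratios, 144 did. These counts do not measure robustness. A level, share or ratio with either library left out lies within the SD of both libraries by arithmetic. Ratios by FPKM and levels by summed transcript TPM repeat the main value. Such values could not move. The median TPM of the 10 genes was 189.7 to 233.6 with either library left out, 173.0 as FPKM and 104 over a fixed length (chosen after seeing the data). The count of genes called different, 1261, became 697 with at least 50 counts in each library, 3131 at a fold of 1.5, 7672 without a fold and 103 by edgeR's exact test. The count among the 10 genes, 0, became 1 (Ssbp2) at a fold of 1.5 and 10 without a fold. Among pathway genes, 3 became 11, 18 and, by edgeR, 0. The log2 ratio of Tcf12 reversed from -0.44 to 0.51 and that of Ssbp3 from -0.08 to 0.079 when TPM replaced counts. Shares of leading transcripts moved for 8 transcripts when counts replaced TPM. Lmo2-206 was not among them, although its mean share was 53.9% by TPM (SD 24.4 points) and 35.4% by counts. Members detected stayed 10 of 10 at TPM thresholds of 0.5 and 5 and without either library. The Ssbp2 values rest on 709 and 296 counts, with 95% Poisson intervals of 658 to 763 and 263 to 332, which cover counting error only; its scaled counts differed between the libraries by more than these allow. The biological coefficient of variation over 10293 genes was 0.287. No paired analysis was possible because there is 1 group.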
